A study of Oryctolagus cuniculus with 34 samples.

Results

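Genes for the proteins of the mitochondrial ribosome were followed in bulk RNA-seq libraries of rabbit supraspinatus, one of the muscles of the rotator cuff. They were the rows of the count tables named MRPL or MRPS and a number, with at least 1 CPM in at least 4 of the 34 libraries (CPM, counts scaled to a common library size with TMM factors). All 71 such rows passed, of 18176 genes in all: 43 were named MRPL and 28 MRPS. By role, 45 encode proteins of the large subunit, among them MRPS30 and MRPS18A in spite of their names, and 25 encode proteins of the small subunit. The last one, MRPS36, was named as a ribosomal protein but is now known as KGD4, a part of the oxoglutarate dehydrogenase complex, and is not found in the mammalian mitoribosome. In the classes used here, 25 of the large-subunit proteins and 16 of the small-subunit proteins have a bacterial homologue. The other 20 and 9 are classed as mitochondria-specific. MRPS18A and MRPS18B are among these, although they are paralogues of MRPS18C, which is classed with a bacterial homologue. MRPL12, MRPL15, MRPL23, MRPL28, MRPL34, MRPL54 and MRPS34 are not analysed here.

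Mitochondria keep a small genome of their own, and their ribosomes translate its few mRNAs, which all encode subunits of the respiratory chain and the ATP synthase. The ribosomal RNAs come from that genome, but every protein of these ribosomes is encoded in the nucleus, made in the cytosol and imported, so the complex is built from the products of both genomes. The small subunit binds and decodes the mRNA, while the large subunit joins amino acids and sits against the inner membrane, where the new chains are inserted. Skeletal muscle fibres are rich in mitochondria. Roles of single proteins given below are those known from human and other mammalian mitoribosomes.

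In the short term, 5 muscles had the repair with a matrix gel (gel), 5 had the repair only (repair) and 4 had the injury only (injury). In the long term, 5 muscles had the repair with the gel, 5 had the repair only and 10 were uninjured. The series title describes the gel as derived from the extracellular matrix of a tissue. For the strain, sex and age of the rabbits, the length of the terms and the way of injury, nothing is given in the sources used here. The labels do not say that the muscles of a group came from separate animals, but animal codes in the file names differ within every group. If those codes do not mark animals, p-values measure only the spread between these samples, which may be technical.

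Libraries held 26904529 to 32313295 counts in the short term, of which 62779 to 88676 fell on the 71 genes. In the long term they held 12582302 to 15019158 counts, of which 21964 to 32977 fell on them. Muscle fibre markers, 7 of 7 above 1 CPM in every group, summed to 45533 CPM or more in every library. Some libraries stood apart from their groups. Short-term repair replicate 4 had a muscle fibre sum of 234625 CPM, against 45533 to 118017 CPM in the other 4 repair libraries. Its fibroblast sum, over 7 markers, was 1235 CPM and its macrophage sum, over 7 markers, was 15.0 CPM, while the other repair libraries had at least 9035 and 78.1 CPM. Short-term injury replicate 3 was at the other end, with 59198 CPM of muscle fibre markers against 185437 to 284802 CPM in the other 3 injury libraries. Its fibroblast sum of 8409 CPM and macrophage sum of 96.8 CPM lay above the 1253 to 2116 CPM and 15.2 to 29.3 CPM of those 3. Long-term gel replicate 1 had the highest sum of the 71 genes in its term, and values without it are given below.

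The terms cannot be compared by a test, because the processing seems to have differed between them as well. The headers of the count columns differ by term, and 8 genes had 0 counts in all 14 short-term libraries and at least 10 in all 20 long-term ones. MRPS2, a small-subunit protein with a bacterial homologue, was one of these 8, with 29 to 99 counts in the long term. MRPL32, a large-subunit protein that is matured by a protease of the inner membrane, went the other way, with 30 to 524 counts in the short term and 0 to 5 in the long term. MRPS2 was therefore not tested in the short term nor MRPL32 in the long term, which left 70 genes in each. Of the other 69, the median log2 ratio of the long-term mean over the short-term mean was -0.01. The lowest ratios belonged to MRPL20 (-2.34), MRPS33 (-1.53), MRPS17 (-1.29), MRPL48 (-1.26), MRPL9 (-1.18) and MRPS16 (-1.03), and 0 genes were above 1. Beyond 1 in either direction lay 8.70% of the 69 genes, against 18.6% of 10841 genes with a mean of at least 1 CPM in each term. The term, the depth and the processing cannot be told apart.

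**Figure D1:**
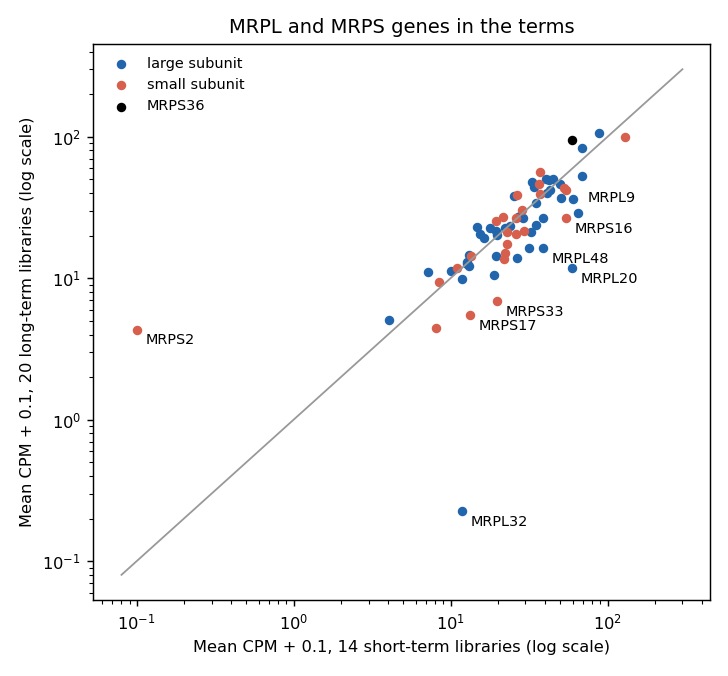
Mean CPM plus 0.1 of each of the 71 genes in the 20 long-term libraries (vertical, log scale) against the 14 short-term libraries (horizontal, log scale); each point is a gene, coloured by subunit, and the line marks equal means. Most points lie near the line, MRPS2 has a short-term mean of 0 and MRPL32 falls far below the line.

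The 71 genes together summed to 2085, 2581, 2450, 2311 and 2361 CPM in the 5 short-term gel libraries, to 1516, 1767, 2024, 2606 and 1680 CPM in the 5 repair libraries and to 2897, 2637, 1751 and 2357 CPM in the 4 injury libraries. Every gel library lay above 4 of the 5 repair libraries, and the exception was repair replicate 4. Long-term sums were 2875, 1921, 1820, 1973 and 2058 CPM with the gel, against 1778, 2102, 1609, 1742 and 1953 CPM with repair. The 10 uninjured muscles ran from 1855 CPM to 2419 CPM, with a median of 2039 CPM. All long-term groups overlapped.

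The balance of the subunits was read from the ratio of their sums. Large-subunit genes held 1.94 to 2.05 times the summed CPM of small-subunit genes in short-term gel libraries, 1.73 to 2.13 times in repair libraries and 1.72 to 1.89 times in injury libraries. The gel and injury ranges do not overlap. Sums of 4 cycling cell markers separated the same groups, at 5.57 to 25.7 CPM with the gel and 0.625 to 4.55 CPM after injury, as did those of 6 lymphocyte markers, at 2.45 to 11.7 CPM and 0.385 to 2.03 CPM. After injury, 1 of the 4 cycling cell markers and 0 of the 6 lymphocyte markers had a mean of at least 1 CPM. With the gel, 4 and 3 did. Repair replicates 3 and 5, with ratios of 1.98 and 2.13, had lymphocyte sums of 1.04 and 1.46 CPM, within the injury range. Muscle fibre sums overlapped, at 83806 to 177211 CPM with the gel and 59198 to 284802 CPM after injury. Injury replicate 3, with the lowest fibre sum of its group, had its highest ratio, 1.89. Repair replicate 4 had the highest fibre sum of its group. The part of any of these cells in the ratio was not tested. Repair replicate 4, at 1.73, was the lowest of its group, and the other 4 repair libraries began at 1.98. Long-term ratios were 1.78 to 2.04 with the gel, 1.83 to 2.03 with repair and 1.84 to 2.03 in uninjured muscle. No test was made of this ratio or of the sums.

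**Figure D2:**
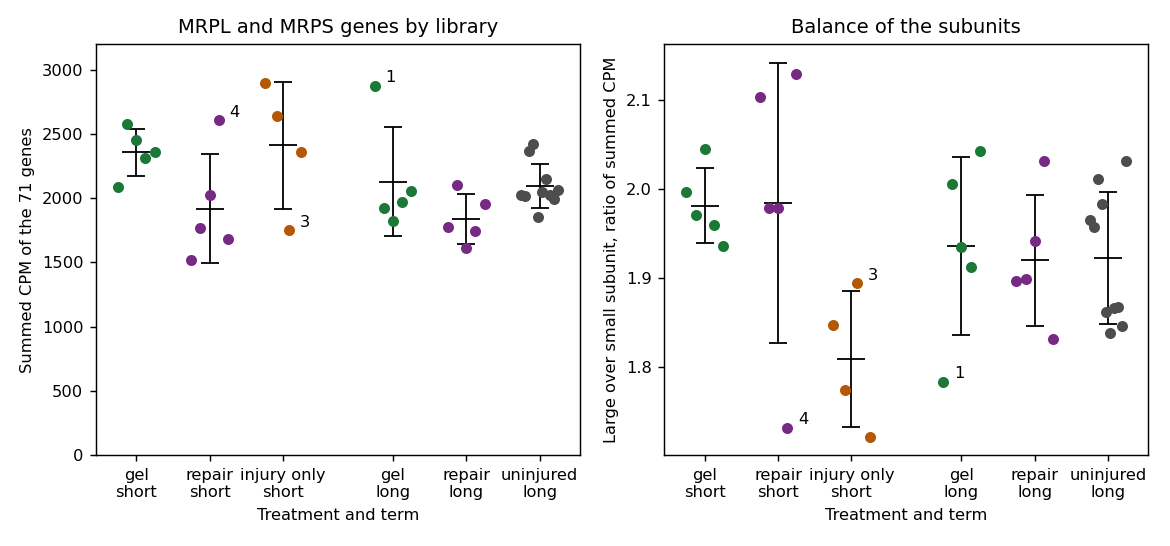
Left, summed CPM of the 71 genes in each of the 34 libraries; right, summed CPM of the large-subunit genes divided by that of the small-subunit genes, on an axis that does not start at 0. Points are libraries, bars the group mean and SD, and the numbers mark short-term repair replicate 4, short-term injury replicate 3 and long-term gel replicate 1. The short-term gel libraries sit between 2085 and 2581 CPM, above every repair library but replicate 4.

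Repair with the gel was set first against repair only in the short term. Genes of both subunits had higher fitted values with the gel, but single genes did not pass the test. The median log2 difference (fitted value with the gel minus that with repair) was 0.33, with 67 of 70 genes above 0, against a median of -0.04 and 45.7% above 0 over all 13526 genes tested. All 24 small-subunit genes tested were above 0, as were 42 of 45 large-subunit genes, with medians of 0.30 and 0.33. The edgeR quasi-likelihood test called 0 of 70 genes at an adjusted p under 0.05, as it called 0% of all genes. limma voom called 0 of 70, against 2 of 13526 genes higher and 1 lower. DESeq2 called 1 higher, MRPL14, or 1.43% of the 70, where it called 0.688% of all genes higher. At an unadjusted p under 0.05, 21 of 70 were higher and 0 lower, against 5.65% higher and 4.73% lower of all genes.

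MRPL14, which lies on the face of the large subunit that meets the small one and binds an assembly factor that keeps the subunits apart, had 44.6, 43.9, 52.4, 47.7 and 49.1 CPM with the gel, against 29.6, 34.2, 35.3, 36.8 and 28.5 CPM with repair. It was the only one of the 70 that was higher without overlap of the groups, where 0.702% of all genes were, and 0 were lower, where 1.53% of all genes were. Its log2 difference was 0.59 (SE 0.13, edgeR adjusted p 0.377). MRPS24, a small-subunit protein at the entry of the mRNA channel, had 29.1, 27.7, 30.8, 23.1 and 20.8 CPM with the gel, against 18.1, 15.1, 17.5, 21.6 and 10.9 CPM with repair. One gel library lay below the highest repair library, which was replicate 4, and the log2 difference was 0.72 (SE 0.19, edgeR adjusted p 0.383). MRPL44, a large-subunit protein with a fold like that of an RNase, had 17.3, 20.7, 24.1, 23.4 and 25 CPM with the gel, against 16.2, 16.2, 16.1, 18.2 and 16 CPM with repair. Its repair values were close together but for replicate 4, and its log2 difference was 0.48 (SE 0.14, edgeR adjusted p 0.406).

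MRPL39, a large-subunit protein related in sequence to a tRNA synthetase, had means of 40.1 ± 9.44 CPM with the gel, against 26 ± 9.74 CPM with repair (SD, n = 5 each), a log2 difference of 0.69 (SE 0.23). The lowest values belonged to MRPL32, at -0.18 (SE 0.44), and MRPL53, a mitochondria-specific large-subunit protein, at -0.01 (SE 0.13). MRPL32 was at 1.05 CPM in gel replicate 5 and between 10.1 and 14.5 CPM in the other gel libraries, and without that library its difference was 0.11. Without repair replicate 4 the median of the 70 genes was 0.47, and 41 of them were higher at an unadjusted p under 0.05, against 8.09% of all genes in that fit. Cell markers varied widely in both groups: fibroblast markers summed to 3636 to 9876 CPM with the gel and to 1235 to 83510 CPM with repair, and muscle fibre markers to 83806 to 177211 CPM and 45533 to 234625 CPM. The part of either in the differences was not tested, and in bulk tissue fewer muscle fibres and less RNA per fibre cannot be told apart.

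Repair was then set against the injury only at the same term. Most of the genes had lower fitted values after repair, with a median log2 difference of -0.33 and 63 of 70 below 0, against a median of 0.02 and 51.7% above 0 over all genes. The 7 above 0 were MRPL41, MRPS10, MRPL58, MRPS12, MRPS16, MRPL53 and MRPL40. All 25 large-subunit genes with a bacterial homologue were below 0, and all 9 mitochondria-specific small-subunit genes were. edgeR and DESeq2 called 0 of 70, where edgeR called 0% of all genes and DESeq2 192 of 13526 genes higher and 39 lower. limma voom with sample quality weights called 37 lower, against 16.2% of all genes lower. With an unadjusted p under 0.05, 11 were lower and 0 higher, against 5.09% lower and 9.5% higher of all genes. Groups without overlap were found for 0 of the 70, against 1.02% of all genes higher and 0.895% lower.

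MRPS24 had the smallest p, with its repair values given above and 32.4, 23.7, 18.9 and 28.8 CPM after injury. Only repair replicate 4, at 21.6 CPM, and injury replicate 3, at 18.9 CPM, made the groups overlap, and the log2 difference was -0.65 (SE 0.20, edgeR adjusted p 0.322). MRPS6, a protein of the small subunit's platform, had 8.50, 23.0, 14.2, 14.5 and 11.1 CPM after repair, against 22.2, 24.3, 26.2 and 24.2 CPM after injury. One repair library, replicate 2, reached the injury values, and the difference was -0.77 (SE 0.24, edgeR adjusted p 0.322). MRPL1, which forms a mobile stalk of the large subunit, had 10.5, 11.5, 13.2, 16.3 and 11.1 CPM after repair, against 17.8, 18.1, 14.9 and 19.9 CPM after injury. The overlap again came from repair replicate 4 and injury replicate 3, and the difference was -0.51 (SE 0.16, edgeR adjusted p 0.322).

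The lowest fitted difference was that of MRPS25, a mitochondria-specific small-subunit protein, with 24.1, 33.4, 45.9, 75.3 and 27.7 CPM after repair and 90.0, 86.8, 35.2 and 72.2 CPM after injury. Repair replicate 4 lay among the injury values and injury replicate 3 among the repair values, and the difference was -0.80 (SE 0.33). The highest was that of MRPL41, a mitochondria-specific large-subunit protein, at 26.1 ± 6.11 CPM after repair and 19.8 ± 2.65 CPM after injury (SD, n = 5 and 4), a difference of 0.39 (SE 0.18). MRPS10, a small-subunit protein with a bacterial homologue, followed at 0.23 (SE 0.28), and without both of those libraries it was -0.12.

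Both libraries were also left out together, a choice made after their values were seen. They were singled out by muscle, fibroblast and macrophage markers, which move with the genes described here, so the counts that follow describe the remaining libraries and are not independent support. With 4 repair and 3 injury libraries, 42 of 70 genes fell after repair at an edgeR adjusted p under 0.05 and 0 rose, against 16.3% lower and 17% higher of all 13662 genes then tested. Lower at an unadjusted p under 0.05 were 49, against 22% of all genes. Among the 42 were 26 of 45 large-subunit genes, 15 of 24 small-subunit genes and MRPS36. Their log2 differences ran from -1.40 to -0.57, with a median of -0.76. The median of all 70 was -0.64, and the 2 genes still above 0 were MRPL41 and MRPL58. MRPS25 averaged 32.8 ± 9.57 CPM after repair and 83 ± 9.52 CPM after injury (SD, n = 4 and 3; -1.40, SE 0.24, edgeR adjusted p 0.00426). MRPS15 and MRPS9, small-subunit proteins with bacterial homologues, averaged 24.6 ± 2.07 and 25 ± 3.61 CPM after repair, against 49.0 ± 5.88 and 49.2 ± 4.43 CPM after injury. These 2 were also the genes called when repair replicate 4 alone was left out (0.0518% of all genes lower), whereas 0 were called without injury replicate 3 alone. In the same libraries, muscle fibre markers summed to 45533 to 118017 CPM after repair and to 185437 to 284802 CPM after injury, without overlap. Fibroblast markers summed to 9035 to 83510 CPM and 1253 to 2116 CPM. The part of fibre and fibroblast content in these falls was not tested. For the gel against repair, the same libraries gave a median of 0.47, with 51 of 70 higher at an unadjusted p under 0.05 (9.82% of all genes). Of the 70, 0 were called, against 0.022% of all genes higher and 0.0732% lower.

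**Figure D3:**
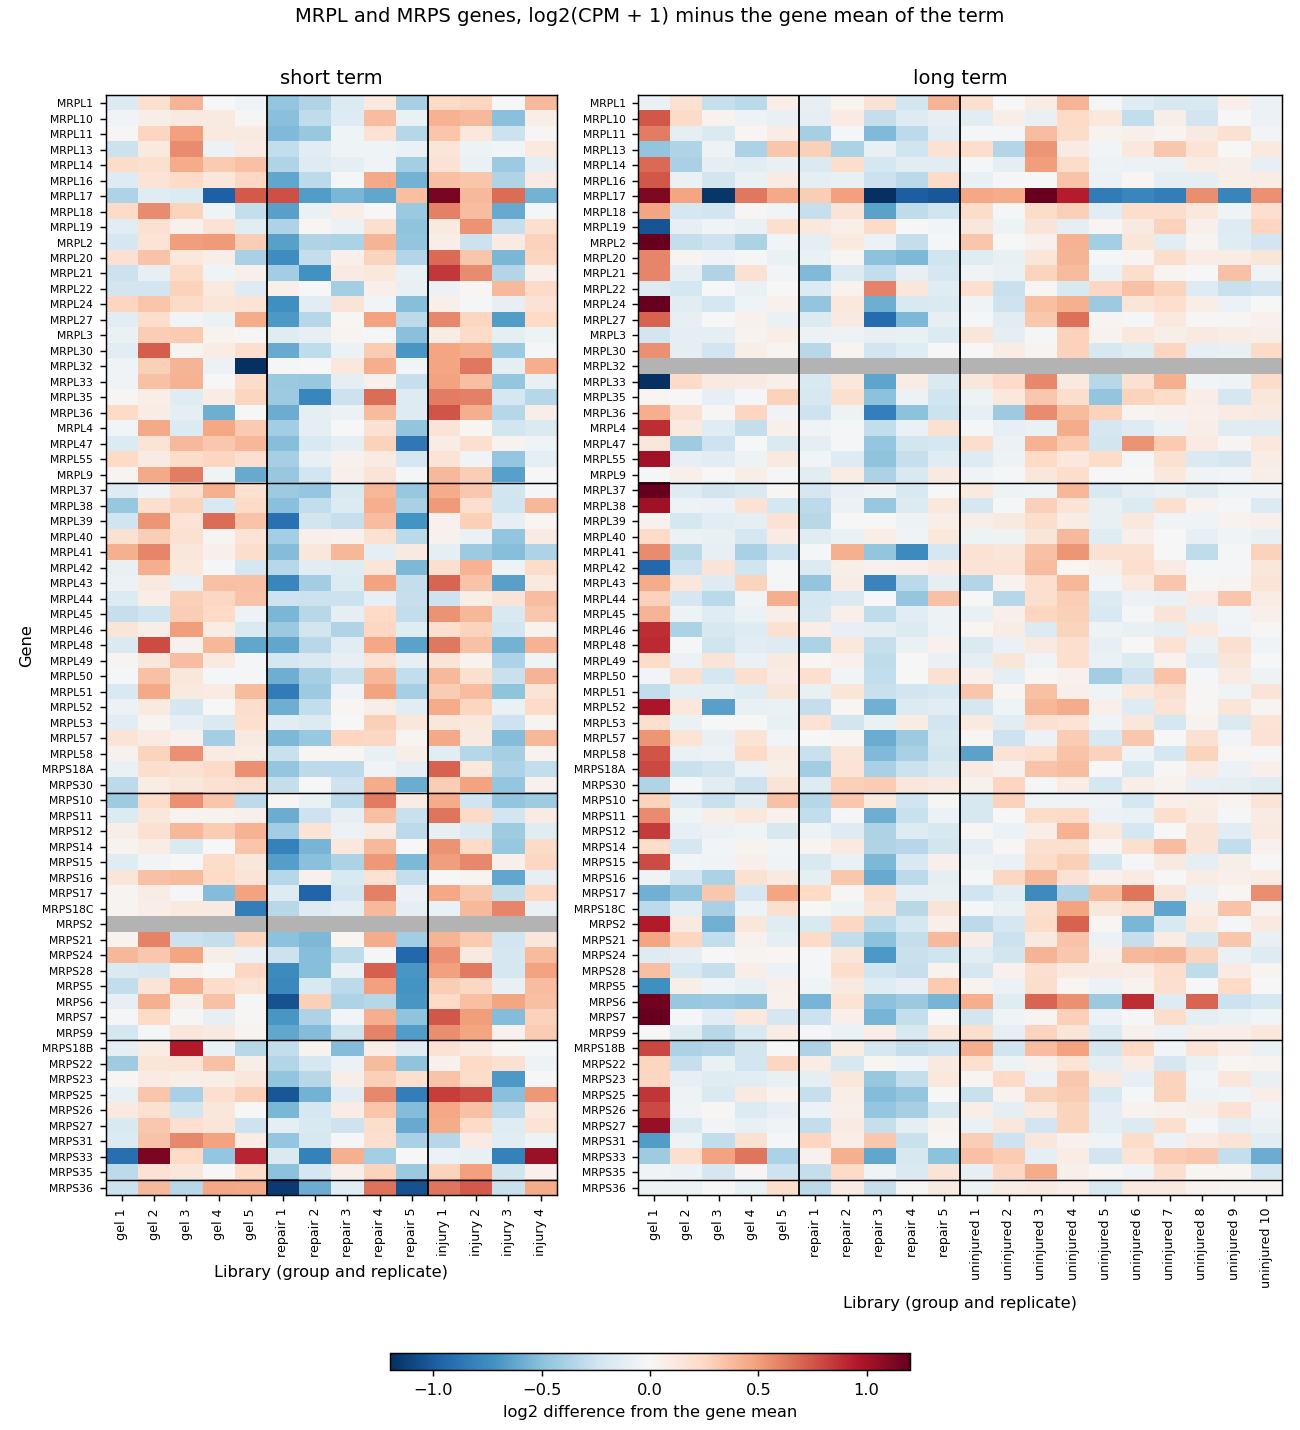
Log2(CPM + 1) of each of the 71 genes (rows) in each library (columns), minus the gene's mean over the libraries of its term; red is higher and blue lower. Rows are ordered as large-subunit genes with a bacterial homologue, large-subunit mitochondria-specific genes, small-subunit genes with a bacterial homologue, small-subunit mitochondria-specific genes and MRPS36, and grey rows were not tested in that term. Short-term repair replicates 1 and 5 are blue in most rows, short-term injury replicate 1 and long-term gel replicate 1 red in most, and MRPL17 varies in all groups.

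The gel was also compared with the injury only. No common direction was found: the median log2 difference was -0.01, with 33 of 70 genes above 0, against 0.02 and 51.9% over all genes. edgeR called 0 of 70 (0% of all genes), DESeq2 called 4 higher (3.64% of all genes). limma voom called 5 higher and 4 lower, or 7.14% and 5.71% of the 70, below the 13.7% and 13.2% it called of all genes. An unadjusted p under 0.05 was reached by 7 higher and 0 lower genes, against 9.83% higher and 8.6% lower of all genes. They were MRPL14, MRPL41, MRPL55, MRPL58, MRPS12, MRPS16 and MRPS31. Muscle fibre markers summed to 83806 to 177211 CPM with the gel and 59198 to 284802 CPM after injury, fibroblast markers to 3636 to 9876 CPM and 1253 to 8409 CPM, and the cycling cell and lymphocyte sums given above did not overlap. The part of these cells in the differences was not tested. Both comparisons with gel libraries used the same 5 gel libraries, and both with injury libraries the same 4. The gel against repair and repair against injury likewise used the same 5 repair libraries. Their medians of 0.33 and -0.33 are therefore not independent.

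MRPL41 had 34.7, 38.7, 28.0, 26.7 and 29.7 CPM with the gel, against 23.6, 18.6, 17.6 and 19.5 CPM after injury. All gel values were above all injury values, and the log2 difference was 0.72 (SE 0.19, edgeR adjusted p 0.145). MRPS12, a protein of the decoding centre of the small subunit, had 22.9, 24.8, 29.0, 27.1 and 29.4 CPM with the gel, against 20.3, 19.2, 15.9 and 19.6 CPM after injury. Its groups did not overlap either, and its difference was 0.56 (SE 0.15, edgeR adjusted p 0.151). MRPL14, at the gel values given above, had 43.2, 36.0, 28.0 and 35.4 CPM after injury. The highest injury value lay just below the lowest gel value, and the difference was 0.47 (SE 0.14, edgeR adjusted p 0.165). MRPL58, a hydrolase that releases chains from stalled ribosomes and is itself built into the large subunit, averaged 22.6 ± 3.58 CPM with the gel and 16.6 ± 2.50 CPM after injury (SD, n = 5 and 4; 0.49, SE 0.15). With MRPS16, a small-subunit protein with a bacterial homologue, these were the 5 genes higher without overlap, 7.14% of 70 against 3.73% of all genes. In the other direction 0 of 70 were without overlap, against 3.76% of all genes.

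The lowest fitted differences were -0.56 (SE 0.42) for MRPL17, a large-subunit protein near the exit of the peptide tunnel, and -0.49 (SE 0.46) for MRPL32. MRPL17 ranged from 22.1 to 74.9 CPM with the gel and from 29.7 to 99.4 CPM after injury. Without injury replicate 3 and repair replicate 4, 20 of 70 genes were above 0 and the median was -0.17. MRPS15, MRPS28 and MRPS9 then fell below injury at an edgeR adjusted p under 0.05, where 10.4% of all genes were called lower and 8.42% higher. These 3 are 4.29% of the 70, below the share of all genes called lower. Their differences were -0.43, -0.57 and -0.46. Of the 70 genes, 4 were higher at an unadjusted p under 0.05, against 18.3% of all genes, and 8 lower, against 18.2%. The 5 genes without overlap were still above 0, MRPL41 at 0.60 and MRPS12 at 0.43.

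**Figure D4:**
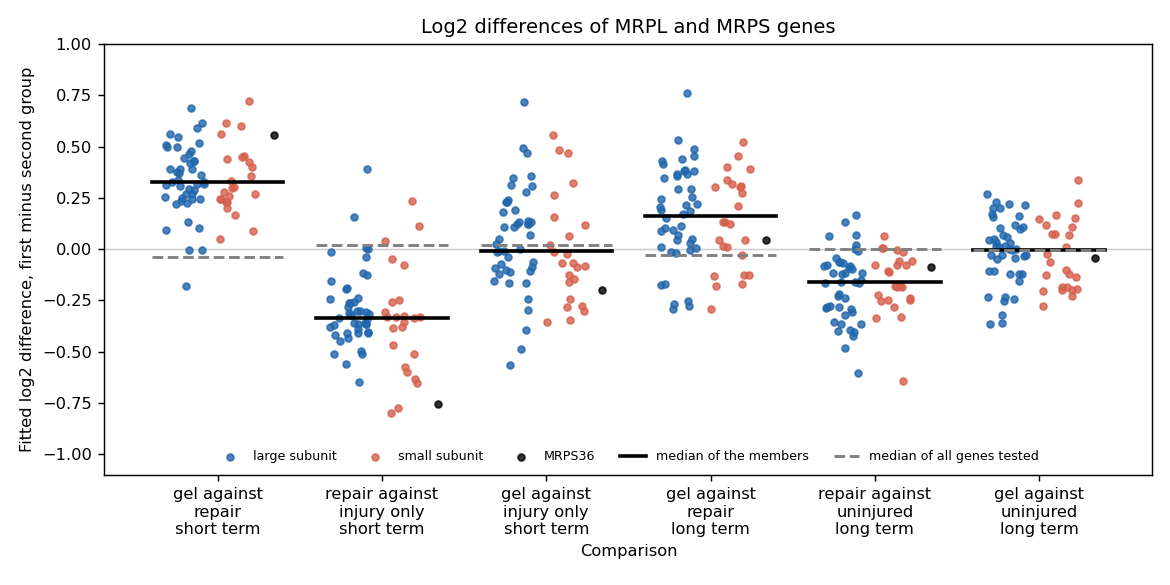
Fitted log2 differences of the tested genes (points, large subunit left, small subunit middle, MRPS36 right) in each of the 6 comparisons, with the median of these genes (solid line) and of all genes tested (dashed line). The member median is 0.33 for gel against repair and -0.33 for repair against injury in the short term, 0.16 and -0.16 for gel against repair and repair against uninjured in the long term, and near 0 in the other comparisons. Comparisons of a term share groups, so their medians are not independent.

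In the long term the gel was again set against the repair. Fitted values were higher with the gel for 54 of 70 genes, with a median log2 difference of 0.16 against -0.03 and 46.3% above 0 over all 11605 genes tested. edgeR, DESeq2 and limma voom called 0 of 70. Of all 11605 genes, edgeR and limma voom called 0, and DESeq2 1 higher and 6 lower. At an unadjusted p under 0.05, 14 were higher and 1, MRPS30, lower, against 7.88% higher and 6.32% lower of all genes. A single library carried much of this: without gel replicate 1 the median was 0.05, 42 of 70 were above 0 and 3 were higher at an unadjusted p under 0.05, against 3.79% of all genes in that fit. With the animal as a block, gel and repair muscles, which share no animal code, were compared through their own uninjured muscles. In that form the median was 0.02, 37 of 70 were above 0 and 0 had an unadjusted p under 0.05.

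MRPL36, one of the last proteins to join the large subunit, had 30.1, 25, 22.2, 26.5 and 21.4 CPM with the gel, against 18.4, 21.0, 12, 15.3 and 18.2 CPM with repair. It alone was higher without overlap among the 70 genes, where 1.11% of all genes were, and 0 were lower, where 0.345% of all genes were. Its repair values were all below its gel values, and its difference was 0.53 (SE 0.17, edgeR adjusted p 0.302). MRPS11, a protein of the small subunit's platform, had 32.0, 20.5, 22.4, 23.3 and 22.1 CPM with the gel, against 17.1, 21.1, 13.9, 17.6 and 20.2 CPM with repair. Gel replicate 1 stood well above the others, the groups overlapped by 1 library on each side, and the difference was 0.39 (SE 0.13, edgeR adjusted p 0.302). MRPL43, a mitochondria-specific large-subunit protein, had means of 29.4 ± 4.96 CPM with the gel, against 21.4 ± 5.07 CPM with repair (SD, n = 5 each; 0.43, SE 0.16, edgeR adjusted p 0.302).

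MRPL17 had the highest difference, 0.76 (SE 0.48), with 86.7, 55.0, 16.9, 61.3 and 54.1 CPM with the gel, against 48.6, 55.7, 15.4, 19.3 and 18.8 CPM with repair. Both groups held high and low libraries, and with the animal as a block the difference was -0.04. The lowest differences belonged to MRPS31, a mitochondria-specific small-subunit protein, at -0.29 (SE 0.17), and to MRPS30, a large-subunit protein, at -0.29 (SE 0.12). MRPS30 had 29.0, 36.9, 34, 31.2 and 42 CPM with the gel, against 33.6, 46.0, 46.6, 41.2 and 40.5 CPM with repair. Gel replicate 5 lay among the repair values, and the other 4 gel libraries lay below all repair libraries but replicate 1.

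Repaired muscles of the long term were compared with uninjured muscles. Here 62 of 70 genes had lower fitted values after repair, with a median log2 difference of -0.16 against -0.00 over all genes, of which 50% were above 0. edgeR called 0 of 70, against 0.965% of all genes higher and 0.0431% lower, and DESeq2 and limma voom called 0 of 70 as well. Of all 11605 genes, DESeq2 called 202 higher and 32 lower, and limma voom 10 higher and 2 lower. At an unadjusted p under 0.05, 12 were lower and 0 higher, against 3.87% lower and 7.85% higher of all genes. The 8 genes above 0 were MRPS30, MRPL22, MRPS31, MRPL50, MRPS17, MRPL1, MRPS22 and MRPL19. With the animal as a block the median was -0.12, 15 of 70 were above 0 and 1 was lower at an unadjusted p under 0.05, against 1.72% of all genes. Without repair replicate 2, 1 of 70 genes was called lower, MRPL18 of the large subunit, against 0.315% of all genes in that fit. The repair libraries were the same as in the comparison with the gel, so the medians of 0.16 and -0.16 are not independent.

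MRPL36, at the repair values given above, ran from 16 to 33.0 CPM with a median of 23.3 CPM in the 10 uninjured muscles. All repair values lay below that median, and the difference was -0.48 (SE 0.15, edgeR adjusted p 0.146). MRPL47, a large-subunit protein at the tunnel exit, had 10.9, 11.8, 8.35, 10.1 and 10.1 CPM after repair, against 10.1 to 17.7 CPM with a median of 13.5 CPM in uninjured muscle. The groups overlapped at the low end of uninjured muscle, and the difference was -0.41 (SE 0.13, edgeR adjusted p 0.185). MRPL11, at the base of the stalk where translation factors dock, had 15.7, 20.7, 14.2, 16.6 and 19.0 CPM after repair, against 20.4 to 27.3 CPM with a median of 21.7 CPM in uninjured muscle. One repair library reached the lowest uninjured values, and the difference was -0.36 (SE 0.12, edgeR adjusted p 0.202).

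MRPL21, a large-subunit protein with a bacterial homologue, was lower after repair without overlap, where 0.0862% of all genes were, and 0 of 70 were higher in this way, against 0.0776% of all genes. It had 3.05, 4.22, 3.75, 4.45 and 4.09 CPM after repair, against 4.51 to 6.60 CPM with a median of 4.93 CPM. Its difference was -0.42 (SE 0.16, edgeR adjusted p 0.278). The lowest fitted differences were those of MRPS6, at -0.64 (SE 0.28), and MRPL17, at -0.60 (SE 0.42). MRPS6 had 15.5, 26.4, 16.3, 16.9 and 15.6 CPM after repair, against 16.9 to 44.0 CPM with a median of 26.5 CPM in uninjured muscle, so its range was wide among uninjured muscles. MRPS30, at 0.17 (SE 0.10), and MRPL22, which lines the peptide tunnel, at 0.13 (SE 0.15), were the highest. Fibroblast markers summed to 898 to 2641 CPM after repair and 432 to 1511 CPM in uninjured muscle, and muscle fibre markers to 105201 to 172284 CPM and 109455 to 201600 CPM. Their part in these differences was not tested.

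The gel was compared with uninjured muscle last. The median log2 difference was -0.00, with 34 of 70 genes above 0, against -0.01 and 49.1% above 0 for all genes. edgeR, DESeq2 and limma voom called 0 of 70 genes, and edgeR called 0.00862% of all genes higher and 0% lower. Of all 11605 genes, DESeq2 called 9 higher and 8 lower, and limma voom 1 higher and 0 lower. Below an unadjusted p of 0.05, 3 were lower and 0 higher, against 4.9% lower and 8.94% higher of all genes. Without overlap there were 0 of 70 in either direction, against 0.121% of all genes higher and 0.0776% lower. Without gel replicate 1 the median was -0.11, 5 of 70 were above 0 and 8 were lower at an unadjusted p under 0.05, against 3.89% of all genes in that fit. The uninjured libraries were the same 10 as in the comparison with repair, and the gel libraries were those set against repair.

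MRPL47 had 13.2, 8.63, 9.88, 11.8 and 10.4 CPM with the gel, against the uninjured range given above. All gel values lay below the uninjured median of 13.5 CPM, and the difference was -0.36 (SE 0.13, edgeR adjusted p 0.325). MRPL42, a mitochondria-specific large-subunit protein, had 9.31, 15.7, 21.1, 15.8 and 18.6 CPM with the gel, against 18.5 to 24.7 CPM with a median of 20.5 CPM in uninjured muscle. Gel replicate 1 was the lowest of all, and the difference was -0.36 (SE 0.13, edgeR adjusted p 0.325), or -0.22 without it. MRPL51, another mitochondria-specific large-subunit protein, averaged 31.3 ± 3.66 CPM with the gel and 36.7 ± 3.88 CPM in uninjured muscle (SD, n = 5 and 10; -0.23, SE 0.10, edgeR adjusted p 0.341).

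MRPS7, which lies in the head of the small subunit, and MRPL37, a mitochondria-specific large-subunit protein, had the highest differences, and both rested on 1 library. MRPS7 had 245, 94.8, 87.5, 105 and 83.3 CPM with the gel, against 82.3 to 117 CPM with a median of 93.5 CPM in uninjured muscle. Its difference was 0.34 (SE 0.19), and -0.06 without gel replicate 1. MRPL37 had 194, 72.2, 68.9, 71.4 and 82.1 CPM with the gel, against 70.7 to 107 CPM with a median of 77.6 CPM. Its difference was 0.27 (SE 0.18), and -0.13 without gel replicate 1. The same library had 8993 CPM of cytosolic ribosomal protein genes, against 4039 to 4961 CPM in the other gel libraries, and 228676 CPM of muscle fibre markers, against 145623 to 179256 CPM. The part of these in its values was not tested.

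Animal codes in the names of the files tie every operated muscle of the long term to one uninjured muscle, which allowed a comparison within animals. Gel muscles had 1.22, 0.794, 0.888, 0.974 and 0.999 times the summed CPM of the uninjured muscle of the same animal. Repaired muscles had 0.877, 1.04, 0.867, 0.810 and 0.980 times. In each set 1 muscle exceeded its own uninjured muscle and 4 did not. Of 70 genes, 5 were lower than in the own uninjured muscle in 5 of 5 gel animals (MRPL42, MRPL47, MRPL51, MRPS9 and MRPS35), and 7 in 5 of 5 repair animals (MRPL21, MRPL33, MRPL45, MRPS11, MRPS12, MRPS15 and MRPS23). Over all 11605 genes tested, 4.48% were lower in 5 of 5 gel animals and 6.94% in 5 of 5 repair animals, near the members' 7.14% and 10%. In both sets 0 of 70 genes were higher in 5 of 5 animals, against 4.83% of all genes in gel animals and 5.25% in repair animals.

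**Figure D5:**
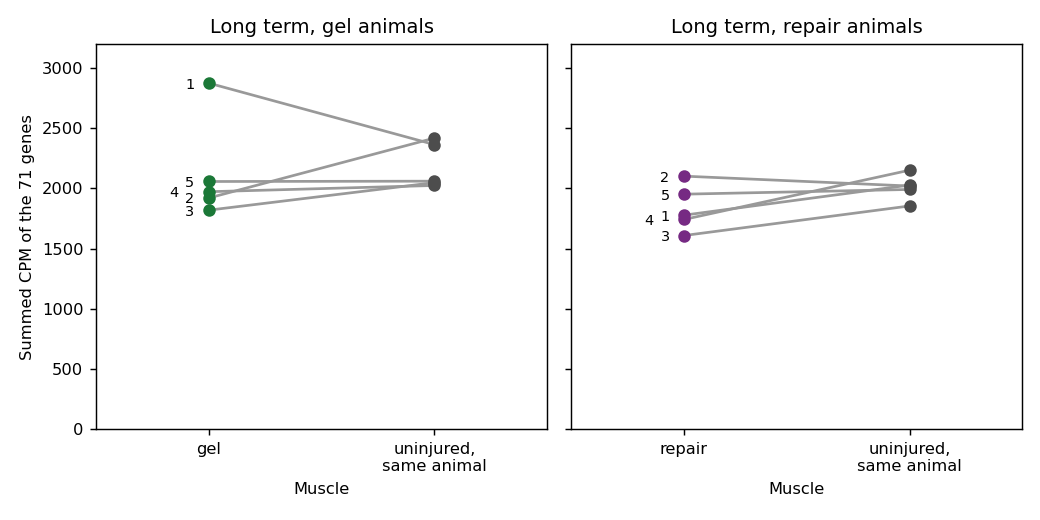
Summed CPM of the 71 genes in each long-term gel muscle (left panel) or repaired muscle (right panel) and in the uninjured muscle with the same animal code, joined by a line; numbers are replicates of the operated group. Gel replicate 1 and repair replicate 2 lie above their own uninjured muscle, and the other 8 operated muscles at or below it.

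The panel of proteins with known places in the ribosome can be followed by level in the short-term groups. At the stalk that recruits translation factors, MRPL10 averaged 41.5 ± 1.85 CPM with the gel, 37.2 ± 9.11 CPM with repair and 44.1 ± 12 CPM after injury, and MRPL11 36.6 ± 4.99, 27.1 ± 5.93 and 33.2 ± 5.79 CPM (SD, n = 5, 5 and 4, here and below). MRPL3, near the site of peptide bond formation, averaged 31.2 ± 4.03 CPM with the gel, 25.9 ± 3.64 CPM with repair and 29.4 ± 3.20 CPM after injury. Around the exit of the tunnel, MRPL24 averaged 79.1 ± 4.35 CPM with the gel, 58.0 ± 14.2 CPM with repair and 69.1 ± 5.73 CPM after injury. All 4 genes had their lowest mean with repair, as the sums did. MRPL58, also of the panel, had its lowest mean after injury, at 22.6 ± 3.58 CPM with the gel, 18.7 ± 1.82 CPM with repair and 16.6 ± 2.50 CPM after injury. MRPS12 averaged 26.7 ± 2.78 CPM with the gel and 18.8 ± 1.95 CPM after injury, and its fitted value was higher after repair than after injury. MRPL45, which anchors the ribosome to the inner membrane, averaged 19.0 ± 3.71 CPM with the gel, 16.4 ± 3.77 CPM with repair and 23.3 ± 4.80 CPM after injury, and MRPS22, a mitochondria-specific small-subunit protein, 13.9 ± 2.76, 12 ± 3.24 and 14.2 ± 1.40 CPM. MRPS36 varied more, at 62.1 ± 16.4 CPM with the gel, 44.4 ± 25.5 CPM with repair and 74.1 ± 20.5 CPM after injury.

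MRPS18A, MRPS18B and MRPS18C are paralogues, of which the first sits in the large subunit and the others in the small one. MRPS18A averaged 47.1 ± 7.59 CPM with the gel, 33.7 ± 4.08 CPM with repair and 43.2 ± 16.2 CPM after injury in the short term. MRPS18B averaged 31.6 ± 13.1 CPM with the gel, with 54.6 CPM in replicate 3 against 21.8 to 29.7 CPM in the others, 24.9 ± 4.30 CPM with repair and 29.3 ± 1.83 CPM after injury. MRPS18C averaged 7.39 ± 1.96, 7.45 ± 1.72 and 9.24 ± 2.40 CPM in the same groups. For gel against repair their log2 differences were 0.54, 0.40 and 0.05, and edgeR called none of the 3 (unadjusted p 0.0161, 0.0889 and 0.846). In the long term MRPS18A averaged 42.2 ± 14.8 CPM with the gel, 33.7 ± 5.96 CPM with repair and 41.3 ± 5.11 CPM in uninjured muscle (SD, n = 5, 5 and 10).

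Among long-term groups, MRPL3 averaged 25.4 ± 2.24 CPM with the gel, 24.7 ± 0.670 CPM with repair and 28.2 ± 2.05 CPM in uninjured muscle (SD, n = 5, 5 and 10, here and below). MRPL10 averaged 57.5 ± 15.5, 45.9 ± 4.60 and 48.7 ± 5.62 CPM in these groups, and MRPL24 62.1 ± 31.3, 43.3 ± 8.69 and 53.4 ± 9.65 CPM. The wide SDs with the gel came from replicate 1, at 83.9 CPM of MRPL10 and 118 CPM of MRPL24. MRPL58 averaged 16.4 ± 4.57 CPM with the gel, 11.7 ± 2.32 CPM with repair and 14.5 ± 2.83 CPM in uninjured muscle, and MRPS12 16.3 ± 6.06, 12.8 ± 1.08 and 15.3 ± 2.06 CPM. MRPS22, at 14.1 ± 2.74, 14.1 ± 1.23 and 14.2 ± 1.31 CPM, had nearly equal means in the 3 groups. MRPL45 averaged 22.3 ± 3.78 CPM with the gel, 19.6 ± 1.98 CPM with repair and 22.2 ± 2.52 CPM in uninjured muscle. MRPS36 averaged 94.2 ± 8.39 CPM with the gel, 89.7 ± 12.5 CPM with repair and 96.4 ± 6.01 CPM in uninjured muscle.

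The spread within groups was, at the median, smaller for these genes than for all genes, which were not matched to them by level. The median SD of log2 CPM within groups was 0.327 for the 70 genes tested in the short term and 0.256 in the long term, against 0.471 and 0.355 over all genes tested. Part of this spread was common to them. After the mean of the other members was taken off in each library, the median SD was 0.228 and 0.203. The SD was smaller than before for 60 of 70 and 48 of 70 genes. No such count was made for genes outside the members, so it cannot be read as particular to them. MRPL3 in the long term (0.0996) and MRPL49 of the large subunit in the short term (0.176) had the narrowest spread. MRPL32 (0.949), MRPS33 of the small subunit (0.753) and MRPL17 (0.677) had the widest in the short term, and MRPL17 (0.858) and MRPS6 (0.533) in the long term.

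Other genes of mitochondrial translation were described by lists chosen with earlier results known. For the gel against repair in the short term the median log2 differences were 0.32 for 4 ribosomal proteins with other names (DAP3, PTCD3, CHCHD1 and AURKAIP1), 0.11 for 29 assembly and rRNA processing genes, 0.26 for 20 translation factors and 0.19 for 19 mitochondrial tRNA synthetases. For repair against injury they were -0.28, -0.28, -0.24 and -0.05. For the gel against injury they were -0.10, -0.09, 0.07 and 0.06. With all libraries, edgeR called 0 genes of these lists in the 6 comparisons. At an unadjusted p under 0.05 in the gel against repair of the short term, 0 of 4, 4 of 29, 2 of 20 and 1 of 19 were higher and 0 lower, against 5.65% higher and 4.73% lower of all genes. The 4 assembly genes were the GTPase MTG1, the rRNA methyltransferase MRM2, the small-subunit assembly factor RBFA and YBEY, an RNase-like protein. Long-term medians of the same 4 lists were 0.28, 0.15, -0.08 and 0.05 for the gel against repair and -0.22, -0.15, -0.05 and -0.02 for repair against uninjured muscle.

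The respiratory chain, whose core subunits mitoribosomes make, was read through its nuclear-encoded subunits. These 63 oxidative phosphorylation genes had medians of 0.63 for the gel against repair, -0.56 for repair against injury and 0.06 for the gel against injury in the short term, against 0.33, -0.33 and -0.01 for the mitoribosomal genes. Their long-term medians were 0.16 for the gel against repair, -0.19 for repair against uninjured muscle and -0.02 for the gel against uninjured muscle. Markers of mitochondrial mass (13 genes of outer-membrane channels, import, chaperones and the citric acid cycle) had medians of 0.46, -0.37 and -0.03 in the 3 short-term comparisons. With the same libraries left out as above, repair against injury gave 60 of 63 oxidative phosphorylation genes lower at an edgeR adjusted p under 0.05. So were 10 of 13 mass markers, 20 of 29 assembly genes and 10 of 20 translation factors, with 1 translation factor higher. Shares were smaller for mitochondrial tRNA synthetases, 3 of 19 lower, and regulators of mitochondrial biogenesis, 2 of 10 lower and 1 higher. Of genes for transcription and upkeep of the mitochondrial genome 5 of 10 were lower, and of ribosomal proteins with other names 2 of 4. In that fit 16.3% of all genes were called lower and 17% higher, and the muscle fibre and fibroblast sums of the 2 groups, given above, did not overlap. The part of these in the counts was not tested. Of the 66 genes of the cytosolic ribosome, 0 were lower and 1 was higher, RPL3. Cytosolic ribosomal protein genes had medians of 0.23, -0.04 and 0.19 in the short-term comparisons with all libraries, and of 0.21, -0.33 and -0.07 in the long term. No test set these lists against each other. Comparisons of a term share libraries, so the medians of a list within a term are not independent.

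Genes for transcription and upkeep of the mitochondrial genome (10 tested in the short term, 11 in the long term) had medians of -0.02, -0.36 and -0.37 in the short-term comparisons, in the order gel against repair, repair against injury and gel against injury. For the gel against injury 9 of these 10 were below 0. Regulators of mitochondrial biogenesis (10 genes) had medians of -0.10, -0.16 and 0.03, and with all libraries edgeR called 0 genes of either list. At an unadjusted p under 0.05 the regulators NRF1, GABPA and YY1 were lower with the gel than after injury, 3 of 10 against 8.6% of all genes. These 3 are transcription factors of nuclear genes for mitochondrial proteins. At that threshold 0 were higher, against 9.83% of all genes. Of the 10 regulators, 5 were above 0 in this comparison, up to 0.84.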

How the data were processed

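RNA-seq counts per gene were deposited by the authors as 1 table per library for 34 libraries of rabbit supraspinatus. STAR, edgeR and the OryCun2.0 genome are named in the submitters' processing notes; for versions, counting program, annotation and strand nothing is given in the sources used here. Reads of overlapping genes or of similar gene copies therefore cannot be separated. The files had 18210 entries each. Date-like names replaced 26 gene names, whose entries (0.163% of counts at most) were not used, and 15 entries of 7 repeated symbols were summed. Each term was fitted on its own with edgeR 4.0.16 in R 4.3.3 (TMM scaling, filterByExpr, robust quasi-likelihood test, Benjamini-Hochberg adjustment, threshold 0.05) on all genes and all groups of the term. DESeq2 1.42.0 and limma 3.58.1 voom with sample quality weights were alternatives, with other size factors, no filter, replicate blocks and left-out libraries. Scripts were tested on simulated data. CPM values used TMM scaling over all 34 libraries. An SE is the log2 difference divided by the root of its F statistic.

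Genes named in each comparison were the 3 with the smallest p and the 2 highest and 2 lowest fitted differences among those with a mean of at least 5 CPM, beside a panel of proteins of known place and genes whose groups did not overlap. Other members were named after their values were seen. The members and lists were chosen with earlier results of these data known. Replicate numbers in titles were not used as pairs in the main fit (correlations of deviations from group means from -0.371 to 0.397 in the short term). Animal codes in file names tie 10 long-term operated muscles to uninjured ones, with correlations from -0.246 to 0.383, and the fit with that block is given where it moves a value. These ranges are alike, so the correlations cannot tell whether title numbers mark pairs. No 2 libraries were identical or within sampling noise.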

Additional observations from a re-analysis of the deposited data

Results flagged for a closer look

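Values of the sum and of named genes were searched for a sample far from its group, over 87 groups of values, and chance flags about 1 group in 20. Long-term gel replicate 1 accounted for 6 of the 10 found. Its summed CPM was 2875, against 2058 for the next gel library. It was also the highest for MRPS7 (245 against 105 CPM), MRPL37 (194 against 82.1 CPM), MRPS6 (53.3 against 24.2 CPM), MRPL11 (32.4 against 22.3 CPM) and MRPS11 (32.0 against 23.3 CPM). The other 4 lay in different libraries. MRPL37 was at 107 CPM in long-term uninjured replicate 4, with the next at 87.5 CPM. MRPS6 was at 26.4 CPM in long-term repair replicate 2, with the next at 16.9 CPM. MRPL42 was lowest in long-term repair replicate 1, at 16.7 CPM, with the next at 19.5 CPM. MRPL44 was at 18.2 CPM in short-term repair replicate 4, with the next at 16.2 CPM.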

How the results depend on the processing

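Of 226 values of whole comparisons under the alternatives, 217 kept their direction and side of the threshold or moved by less than the limit used, as did 634 of 663 values of named genes. DESeq2 called 1 gene for gel against repair in the short term (0.688% of all genes higher) and 4 for gel against injury (3.64%). limma voom called 37 for repair against injury (16.2% of all genes lower) and 9 for gel against injury, fewer than its shares of all genes (13.7% higher and 13.2% lower). Leaving out short-term injury replicate 3 and repair replicate 4, chosen after seeing the data by marker sums that move with these genes, gave 42 called for repair against injury, with a median of -0.64, and 3 for gel against injury. With 1 library left out at a time, calls ran from 0 to 2 for repair against injury (2 without repair replicate 4) and from 0 to 1 for repair against uninjured muscle (1 without repair replicate 2). Among named genes, 14 values passed the threshold only under an alternative and 15 changed sign. For gel against repair in the short term, MRPL53 (-0.01) was 0.0795 with limma voom, 0.0635 with both libraries left out and -0.0803 to 0.057 with 1 left out, and MRPL32 ran from -0.38 to 0.11. MRPS10 in repair against injury was -0.0395 with limma voom and -0.12 with both left out. In the long term, MRPL17 in gel against repair was -0.0435 with the animal block, and MRPL22 in repair against uninjured muscle ran from -0.0336 to 0.20 with 1 left out. In gel against uninjured muscle, MRPL37 was -0.0929 with limma voom and -0.13 to 0.37 with 1 left out, and MRPS7 ran from -0.0618 to 0.45. The cause was not tested. With the replicate number as a block, 0 genes were called in every comparison and the short-term medians were 0.33, -0.34 and 0.02. With the animal as a block, 0 were called and the long-term medians were 0.02, -0.12 and -0.08. The short-term medians of gel against injury and the long-term medians of gel against uninjured muscle lie near 0 and change sign between settings.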
